A study of Rattus norvegicus with 18 samples.

Results

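Astrocytes release proteins that lead neurons to form and mature synapses. The genes of 8 such factors were looked for by symbol in the deposited expression table, namely Sparcl1, Sparc, Thbs1, Thbs2, Thbs4, Gpc4, Gpc6 and Chrdl1. The table held 7 of them among 10431 rows with a gene name, and Gpc6 was not analysed here. The rows were found by symbol alone, but the factors were chosen with earlier results of these data known. The cells were primary astrocytes taken from postnatal day 5 rat brain by immunopanning, a method that captures a cell type on antibody-coated dishes, and their RNA was sequenced in bulk after 24 h of treatment. There were 3 libraries in each of 6 groups. One group was given PBS alone (control), a pair of groups a single interferon, either interferon gamma (IFNγ) or interferon beta (IFNβ), and another the cytokine mix TIC, named for its parts TNFα, IL1α and C1q. The remaining groups were given TIC combined with IFNγ (IFNγ+TIC) or with IFNβ (IFNβ+TIC). The sample labels give IFNγ at 3 ng/ml, IFNβ at 1000 U/ml, TNFα at 30 ng/ml, IL1α at 3 ng/ml and C1q at 40 ng/ml. The legend of the authors' deposited workbook instead has 1000 U/ml of IFNγ, 3 ng/ml of IFNβ and 400 ng/ml of C1q, so these doses are uncertain. The labels name no genotype or strain to compare. They do not tell whether the libraries of a group are separate cultures or animals, and the tests can then speak only of the spread among these libraries, which may be technical.

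Sparcl1 (hevin) and Sparc (osteonectin) are secreted matricellular proteins of one family. Hevin promotes excitatory synapse formation by bridging neurexins and neuroligins across the synaptic cleft, and Sparc opposes that action. Thrombospondins act on the neuronal calcium channel subunit α2δ-1 and induce synapses that are structurally normal but postsynaptically silent. Glypicans recruit AMPA receptors and so make such synapses active, and chordin-like 1, a BMP antagonist, promotes the maturation of synaptic AMPA receptors. Interferons act through STAT and IRF transcription factors, and TNFα and IL1α act largely through NF-κB. TIC is known for bringing cultured astrocytes into a reactive state.

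The promoters of 3 members are shown because their levels followed 3 different patterns, described further on. Sparcl1 was lower with every treatment, Gpc4 was higher mainly where IFNβ was given, and Thbs1 was higher wherever either interferon was given. Each sequence runs from 250 bases before to 50 bases after a transcript start in RefSeq's rat annotation of build GRCr8, and is printed 5′ to 3′ on the strand of the gene. The RefSeq table held 6 of the 7 members, all except Thbs2. The window of Gpc4 was placed on a start that lies inside the annotated gene, and the positions are RefSeq's, not the authors'. Sparcl1 lay on the plus strand at chr14:5937234-5937533, Gpc4 on the minus strand at chrX:136676008-136676307 and Thbs1 on the plus strand at chr3:125510000-125510299.
Sparcl1: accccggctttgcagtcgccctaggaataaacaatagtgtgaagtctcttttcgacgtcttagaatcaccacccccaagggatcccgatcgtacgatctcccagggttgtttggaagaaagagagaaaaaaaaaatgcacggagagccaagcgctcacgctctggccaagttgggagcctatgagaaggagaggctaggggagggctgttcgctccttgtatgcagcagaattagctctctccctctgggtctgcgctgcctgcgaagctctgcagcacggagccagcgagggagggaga
Gpc4: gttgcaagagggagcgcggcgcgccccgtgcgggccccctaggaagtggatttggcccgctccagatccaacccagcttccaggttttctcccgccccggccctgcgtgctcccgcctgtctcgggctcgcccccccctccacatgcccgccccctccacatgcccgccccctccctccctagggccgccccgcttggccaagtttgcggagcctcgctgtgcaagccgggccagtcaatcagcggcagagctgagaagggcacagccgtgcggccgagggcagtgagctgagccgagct
Thbs1: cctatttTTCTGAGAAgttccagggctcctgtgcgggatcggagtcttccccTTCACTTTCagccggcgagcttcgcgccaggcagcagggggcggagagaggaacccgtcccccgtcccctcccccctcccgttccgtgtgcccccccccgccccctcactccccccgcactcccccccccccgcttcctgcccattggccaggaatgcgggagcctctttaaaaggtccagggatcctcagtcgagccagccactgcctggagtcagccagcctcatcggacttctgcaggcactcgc

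Capitals in the Thbs1 sequence mark matches to interferon-related motifs. The motifs searched, on both strands, were the interferon gamma-activated site GAS (TTCNNNGAA), the interferon-stimulated response element (GAAANNGAAA), its shorter IRF core (GAAANNGAA, contained in the former) and the NF-κB consensus. Thbs1 held a GAS match, TTCTGAGAA, at -243 to -235 from the start, and an IRF core match on the opposite strand, GAAAGTGAA, at -198 to -190. None of these motifs was found in the windows of Sparcl1, Sparc, Thbs4, Gpc4 or Chrdl1. Among 27456 RefSeq rat promoters of the same length, 8.68% held the GAS letters, 3.77% the response element, 9.50% the IRF core and 7.60% the NF-κB consensus. A match of letters describes the sequence only.

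The values are FPKM, read fragments scaled to transcript length and library total, as deposited, and their sum over a library was 505828 to 542957. The correlation of log2 values was 0.981 to 0.991 between libraries of one group and 0.852 to 0.976 between libraries of different groups. The treatments were visible in their usual marker genes. Irf1, an interferon-induced transcription factor, averaged 17.4 FPKM in control and 324 FPKM after IFNγ, the ubiquitin-like protein Isg15 10.3 FPKM in control and 3666 FPKM after IFNβ, and Lcn2, a marker of reactive astrocytes, 88.2 FPKM in control and 2924 FPKM after TIC. Of 15 astrocyte markers 14 were in the table, with a summed level of 4007 to 4331 FPKM in control, 3795 to 4229.8 FPKM in the IFNγ group, 3046 to 3253 FPKM in the IFNβ group, 1773 to 1839 FPKM in the TIC group, 1220.4 to 1250.3 FPKM in the IFNγ+TIC group and 1681 to 1886 FPKM in the IFNβ+TIC group. Of 12 microglia and macrophage markers 3 were in the table, with a sum of at most 8.76 FPKM in any library. Of 6 oligodendrocyte precursor markers 4 were in the table and summed to 875 to 1116 FPKM in control, 897 to 1067 FPKM after IFNβ, 256 to 284 FPKM after TIC and 128 to 136 FPKM after IFNγ+TIC, where the members moved in different ways. With TIC, Olig1 (-1.92, limma adjusted p = 1.53e-11) and Olig2 (-1.61, adjusted p = 1.62e-09) fell, Cspg4 rose (1.36, adjusted p = 1.71e-06), and the defining gene Pdgfra, at 2.24 to 3.01 FPKM in control and 2.46 to 3.03 FPKM after TIC, was not called (-0.019, adjusted p = 0.926); the genes other than Pdgfra were named after their values were seen. Of 7 oligodendrocyte markers 4 were in the table and summed to 137 to 173 FPKM in control, 329.5 to 390.5 FPKM after IFNβ and 66.9 to 78.2 FPKM after TIC. These sums moved with the treatments, as several members did, and their part in the results was not tested. In such bulk RNA, fewer cells of a type and less RNA per cell cannot be told apart.

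Changes are differences of the mean log2(FPKM + 1) with their standard error (SE), tested with limma over 10296 genes. A gene was called at a Benjamini-Hochberg adjusted p under 0.05. The pseudocount of 1 makes the change of a gene near or below 1 FPKM smaller than its ratio. All 7 members passed the filter of 1 FPKM in 3 libraries, Thbs1 only through the 4 groups that received interferon. Its entry thus depended on the levels compared, so its inclusion in the counts and medians of members below is a description and supports nothing. With IFNγ, 1 member rose (Thbs1) and 2 fell (Sparcl1 and Thbs4), where 14.3% of genes tested were called, 7.11% higher and 7.17% lower. With IFNβ, 2 rose (Gpc4 and Thbs1) and 4 fell (Sparcl1, Thbs2, Thbs4 and Chrdl1), against 38.0% of genes called, 8.86% higher and 29.1% lower. After TIC, Gpc4 and Thbs2 had risen and Sparcl1 and Thbs4 fallen, against 56.5% of genes called, 25.3% higher and 31.2% lower. With IFNγ+TIC, Thbs1 rose and Sparcl1, Sparc and Thbs4 fell, against 63.2% of genes called, 22.9% higher and 40.4% lower. All 7 members were called with IFNβ+TIC, 3 higher and 4 lower, against 62.1% of genes called, 19.3% higher and 42.8% lower. With 7 members, the counts for TIC and IFNγ+TIC (4 of 7 each) were near these shares.

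With IFNγ and with IFNγ+TIC the only member called higher was Thbs1, whose entry depended on the levels compared. Leaving Thbs1 aside, members were called in both directions with IFNβ, TIC and IFNβ+TIC, and only lower with IFNγ and IFNγ+TIC. The median log2 change of all 7 members against control was -0.14, -0.48, -0.11, -0.29 and -0.37. The order is IFNγ, IFNβ, TIC, IFNγ+TIC and IFNβ+TIC, as in all such series of 5 values. Over all genes tested the medians were -0.05, -0.16, -0.04, -0.15 and -0.20. Median-ratio scaling of the libraries brought these to -0.01, -0.03, 0.01, 0.01 and 0.01, so the value after that scaling is given wherever it alters a call. The 5 comparisons share the control libraries and are not independent of each other.

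**Figure D1:**
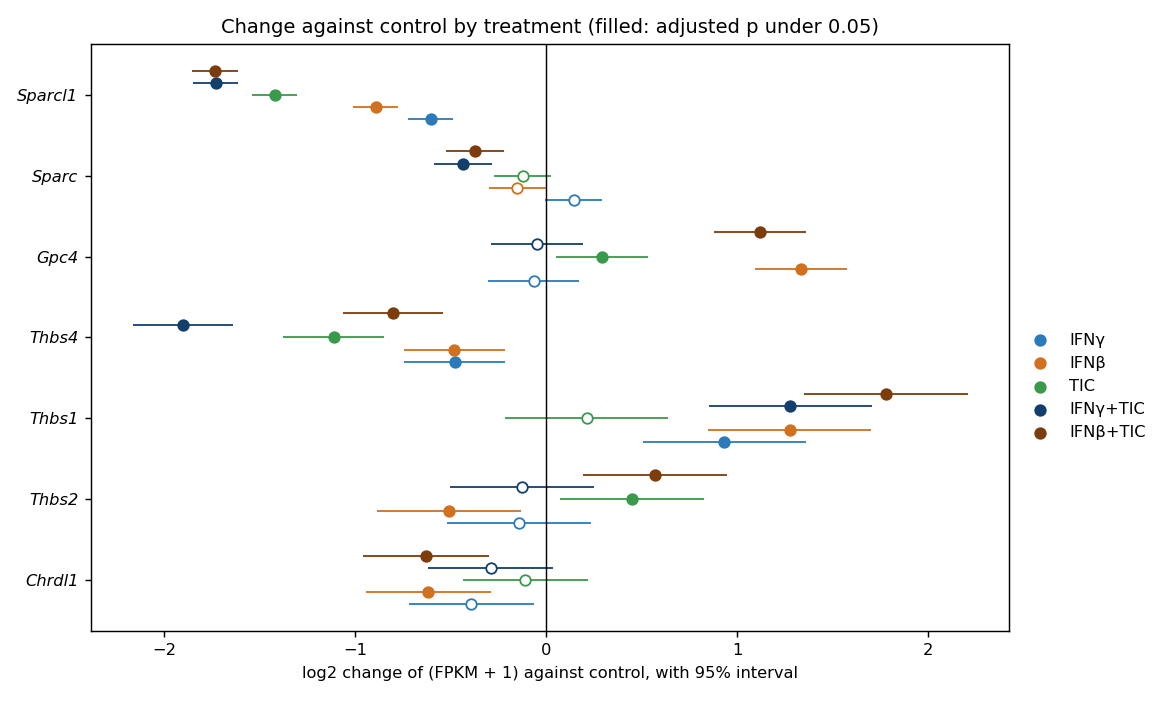
Difference of log2(FPKM + 1) from control with its 95% interval for each gene and treatment, from limma, with filled points where the adjusted p was under 0.05. Sparcl1 and Thbs4 are below 0 under all 5 treatments, Thbs1 is called higher wherever interferon was given, and Gpc4 is at 1.33 and 1.12 in the groups with IFNβ.

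Sparcl1 had the highest control level of the 7 members, ranking 77 of 10431 genes by mean FPKM. It stood at 589.8, 644 and 640.3 FPKM in the control libraries, at 409, 414 and 406 FPKM after IFNγ and at 329.5, 331 and 346 FPKM after IFNβ. It was lower again after TIC, at 222, 245 and 230.0 FPKM, after IFNγ+TIC, at 192, 186 and 184 FPKM, and after IFNβ+TIC, at 192, 193 and 175 FPKM. Every treated library lay below every control library, and only the libraries of IFNγ+TIC and IFNβ+TIC overlapped. The mean was 65.6% of control for IFNγ, 53.7% for IFNβ, 37.2% for TIC, 30.0% for IFNγ+TIC and 29.9% for IFNβ+TIC. On the log2 scale Sparcl1 fell by 0.61 with IFNγ (SE 0.056, limma adjusted p = 3.63e-07), by 0.89 with IFNβ (adjusted p = 9.20e-10) and by 1.42 with TIC (adjusted p = 1.08e-12). It fell by 1.73 with IFNγ+TIC (adjusted p = 3.28e-14) and by 1.74 with IFNβ+TIC (adjusted p = 3.35e-14). The order of the group means was thus control, IFNγ, IFNβ, TIC and then the combined treatments. IFNβ libraries were lower than IFNγ libraries (-0.29, adjusted p = 0.00126, and -0.18 with adjusted p = 0.0370 after median-ratio scaling) and TIC libraries lower than IFNβ libraries (-0.53, adjusted p = 3.58e-07), while the combined treatments differed by -0.0045 (95% interval -0.12 to 0.11). The authors' deposited table gave log2 fold changes of -0.54, -0.68, -1.35, -1.55 and -1.47 for Sparcl1.

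The change of Sparcl1 with interferon was smaller in the presence of TIC. Added to TIC, IFNγ lowered Sparcl1 by 0.31 (limma adjusted p = 0.000493) and IFNβ by 0.31 (adjusted p = 0.000282), against 0.61 and 0.89 without TIC. In these comparisons with TIC alone, 29.2% and 41.4% of genes were called. The difference between the change with and without TIC was 0.30 for IFNγ (SE 0.079, adjusted p = 0.0187) and 0.58 for IFNβ (SE 0.079, adjusted p = 9.72e-05), where 13.9% and 15.8% of genes showed such a difference. After median-ratio scaling the change that IFNγ added to TIC was -0.19 (adjusted p = 0.0264), that of IFNβ was -0.14 (adjusted p = 0.0672) and no longer called, and the differences between the changes were 0.38 (adjusted p = 0.00528) and 0.60 (adjusted p = 9.58e-05). Read the other way, TIC lowered Sparcl1 by 1.12 in cells given IFNγ (adjusted p = 2.33e-11) and by 0.84 in cells given IFNβ (adjusted p = 1.92e-09). There, 58.7% and 46.2% of genes were called.

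**Figure D2:**
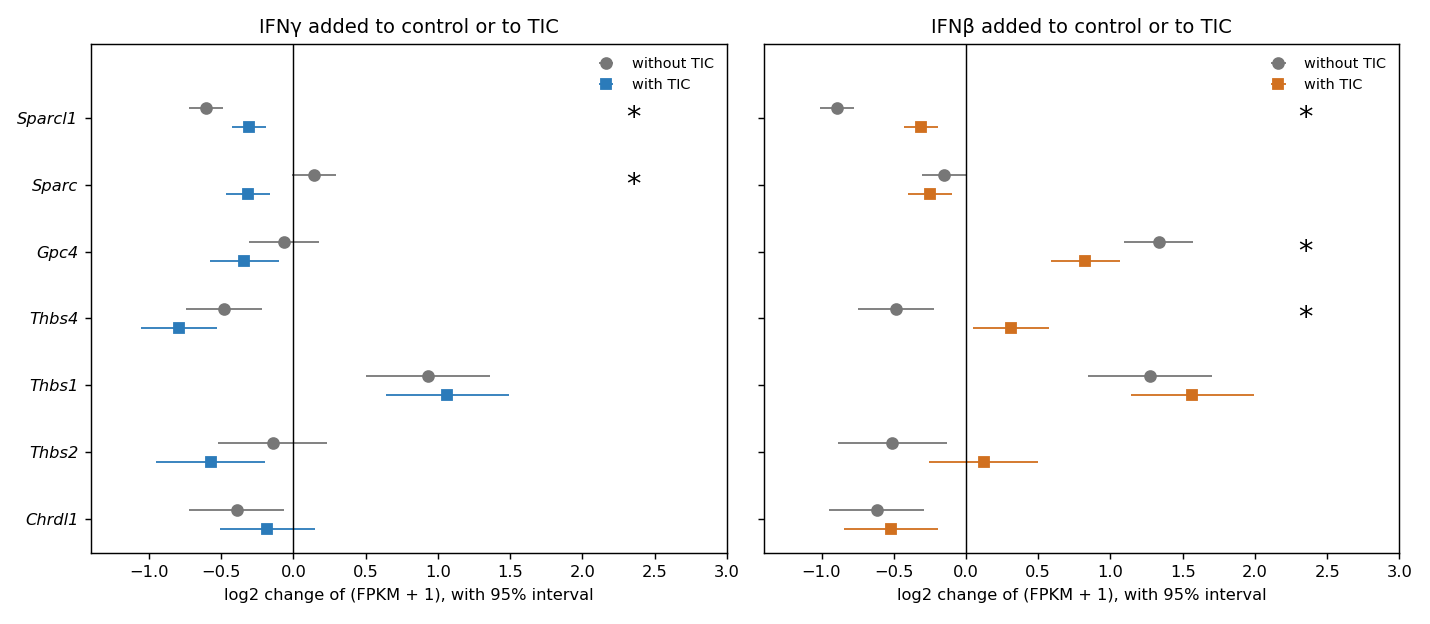
Difference of log2(FPKM + 1) with its 95% interval for each gene after IFNγ or IFNβ, with grey circles for the change without TIC (against control) and coloured squares for the change with TIC (against TIC alone). Asterisks mark genes whose change with and without TIC differed at an adjusted p under 0.05, which were Sparcl1 and Sparc for IFNγ and Sparcl1, Thbs4 and Gpc4 for IFNβ.

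Sparc, the family member that opposes hevin, was abundant in control too and stood within a narrower range. Its levels were 464, 406 and 465 FPKM in control, 522, 471 and 481 FPKM after IFNγ, 419, 373 and 409.8 FPKM after IFNβ and 386, 430.3 and 408 FPKM after TIC. They were 324, 342 and 319 FPKM after IFNγ+TIC and 321, 352 and 357 FPKM after IFNβ+TIC, so that both combined treatments lay below every library of the other groups. Sparc was not called for any treatment given alone, with log2 differences from control of 0.14 for IFNγ (95% interval -0.0070 to 0.29), -0.15 for IFNβ (-0.30 to -0.0012) and -0.12 for TIC (-0.27 to 0.027). Without the lowest control library, control 2, the differences were -0.22 for IFNβ (limma adjusted p = 0.0324) and -0.19 for TIC (adjusted p = 0.0415). After median-ratio scaling they were -0.0037 (adjusted p = 0.974) and -0.063 (adjusted p = 0.435), and the authors' deposited table gave 0.053 (adjusted p = 0.701) and -0.048 (adjusted p = 0.623). Sparc fell by 0.44 with IFNγ+TIC (SE 0.071, adjusted p = 4.08e-05) and by 0.37 with IFNβ+TIC (adjusted p = 0.000222). After median-ratio scaling these were -0.26 (adjusted p = 0.00284) and -0.14 (adjusted p = 0.0721), the latter no longer called. The authors' deposited table gave -0.23 (adjusted p = 0.00183) and -0.12 (adjusted p = 0.212) for Sparc in these groups. In the order of group means, IFNγ, control, TIC, IFNβ, IFNβ+TIC and IFNγ+TIC, the only neighbours that differed were IFNβ and IFNβ+TIC (adjusted p = 0.0175, and 0.0945 after median-ratio scaling).

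The change of Sparc with IFNγ also differed by the presence of TIC. IFNγ+TIC lay 0.31 below TIC alone (limma adjusted p = 0.00307, and -0.19 with adjusted p = 0.0452 after median-ratio scaling) and IFNγ 0.14 above control, and the difference of -0.46 between these changes passed the test (SE 0.10, adjusted p = 0.00557). For IFNβ the corresponding difference was -0.098 (95% interval -0.31 to 0.12). Between the interferons given alone, Sparc was 0.30 lower with IFNβ than with IFNγ (adjusted p = 0.00613), with a difference of -0.19 after median-ratio scaling (adjusted p = 0.0557). The interferons differed in 25.1% of genes.

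The ratio of Sparcl1 to Sparc was taken within each library, as the proteins act against each other; this measure was chosen after the values were seen and is given without a test. It was 1.27, 1.59 and 1.38 in control and below 1 in every treated library. Its mean was 0.836 after IFNγ, 0.840 after IFNβ, 0.570 after TIC, 0.572 after IFNγ+TIC and 0.547 after IFNβ+TIC. On the FPKM scale, Sparcl1 exceeded Sparc only in the 3 control libraries.

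**Figure D3:**
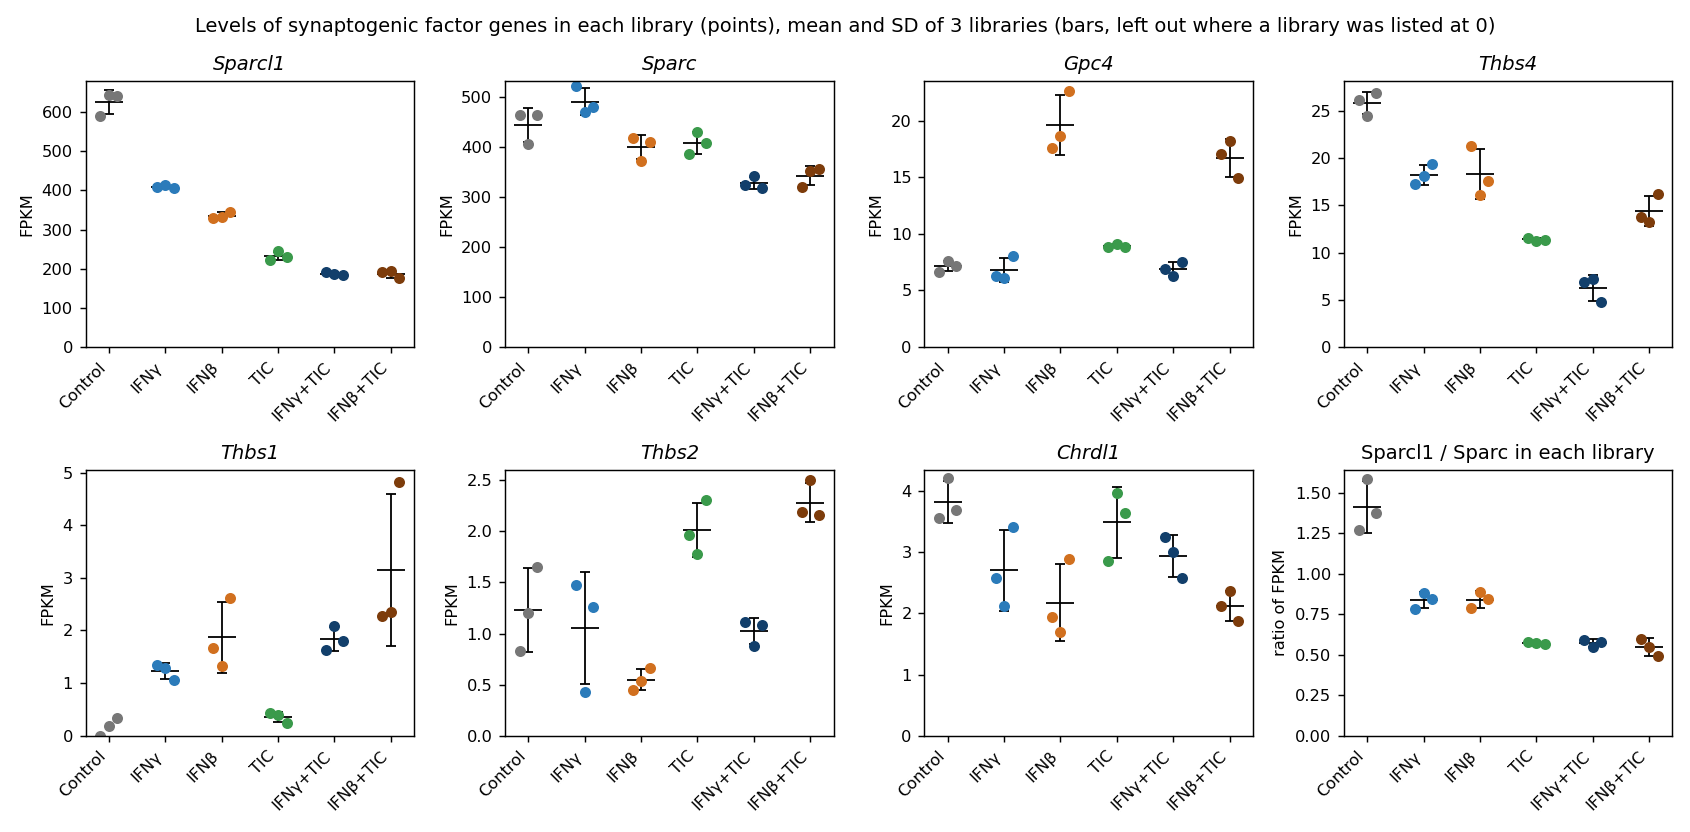
FPKM of each member in the 3 libraries (points) of each group, with bars for the mean and SD (left out where a library was listed at 0), and in the last panel the within-library ratio of Sparcl1 to Sparc. Sparcl1 goes from 589.8 to 644 FPKM in control to 175 to 193 FPKM after IFNβ+TIC, and the ratio lies above 1 only in control.

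Thbs4, a thrombospondin of the pentameric subgroup, had the highest level of the thrombospondins. It stood at 26.1, 24.5 and 26.9 FPKM in control, 17.3, 18.1 and 19.4 FPKM after IFNγ and 21.3, 16.1 and 17.6 FPKM after IFNβ. After TIC it was 11.6, 11.2 and 11.4 FPKM, after IFNγ+TIC 6.83, 7.21 and 4.73 FPKM and after IFNβ+TIC 13.7, 13.3 and 16.2 FPKM. All treated libraries lay below the control libraries, the IFNγ+TIC libraries were lowest, and the IFNβ+TIC libraries lay above those with TIC alone. Thbs4 fell by 0.48 with IFNγ (SE 0.12, limma adjusted p = 0.0140) and by 0.48 with IFNβ (adjusted p = 0.00587). It fell by 1.11 with TIC (adjusted p = 6.97e-07), by 1.90 with IFNγ+TIC (adjusted p = 4.49e-10) and by 0.80 with IFNβ+TIC (adjusted p = 2.58e-05). In the order of means, the libraries of IFNβ and IFNγ overlapped, and IFNβ+TIC and TIC, which did not overlap, differed with an adjusted p just above the threshold (0.0554).

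Thbs4 differed between the interferons in the presence of TIC. Given alone they differed by -0.0013 (95% interval -0.26 to 0.26). Added to TIC, IFNγ lowered Thbs4 by a further 0.79 (limma adjusted p = 0.000125), whereas IFNβ gave 0.31 (adjusted p = 0.0554), or 0.47 after median-ratio scaling (adjusted p = 0.00835). The change with IFNβ differed by the presence of TIC, by 0.79 (SE 0.18, adjusted p = 0.00550), and for IFNγ that difference was -0.31 (95% interval -0.68 to 0.063). Between the combined treatments, Thbs4 was 1.10 higher with IFNβ+TIC (adjusted p = 4.28e-06), a comparison in which 22.4% of genes were called. TIC lowered Thbs4 by 1.42 in cells given IFNγ (adjusted p = 3.14e-08) and by 0.32 in cells given IFNβ (adjusted p = 0.0433). The latter was -0.25 after median-ratio scaling (adjusted p = 0.119), and it was lost without IFNβ 1 (-0.21, adjusted p = 0.210), IFNβ 3, IFNβ+TIC 1 or IFNβ+TIC 2.

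Thbs1, an activator of latent TGFβ as well as a synaptogenic factor, was hardly detected without interferon. It was listed at 0, 0.180 and 0.345 FPKM in control and 0.433, 0.385 and 0.243 FPKM after TIC. It reached 1.34, 1.29 and 1.06 FPKM after IFNγ, 1.66, 1.33 and 2.62 FPKM after IFNβ, 1.64, 2.08 and 1.79 FPKM after IFNγ+TIC and 2.28, 2.36 and 4.81 FPKM after IFNβ+TIC. All 12 libraries with interferon lay above all 6 without it, at levels near the bottom of the table. The log2 change was 0.93 with IFNγ (SE 0.20, limma adjusted p = 0.00407), 1.28 with IFNβ (adjusted p = 0.000115), 1.28 with IFNγ+TIC (adjusted p = 2.92e-05) and 1.78 with IFNβ+TIC (adjusted p = 7.40e-07). As Thbs1 passed the filter only through the groups where it was high, these p-values are not independent of its entry. With no filter the same changes had adjusted p-values of 0.00406, 0.000116, 2.93e-05 and 7.48e-07. All rows of the deposited table had a mean of 0.501 FPKM or more, while Thbs1 averaged 0.175 FPKM in control and 0.354 FPKM after TIC. Its presence in the table may thus also rest on the groups with interferon, and leaving out the filter does not undo that. With a pseudocount of 0.1 the changes were 2.51, 3.04, 3.06 and 3.73. For TIC alone the change with a pseudocount of 1 was 0.21 (95% interval -0.21 to 0.64). The promoter of Thbs1 printed above is the one of the 6 with matches to the GAS and IRF core letters. Of all RefSeq rat promoters 8.68% and 9.50% held these letters, and the window of Gpc4, which rose with IFNβ, held neither. Any part of the matches in the levels was not tested. In the presence of TIC, Thbs1 rose by 1.07 with IFNγ (adjusted p = 0.000703) and by 1.57 with IFNβ (adjusted p = 1.00e-05), and the difference from the change without TIC was 0.13 (95% interval -0.47 to 0.74) and 0.29 (-0.31 to 0.90). The authors' deposited table gave log2 fold changes of 1.67, 2.49, 0.48 (adjusted p = 0.371), 2.94 and 3.63 for Thbs1. Among the 4 groups with interferon, no neighbours in the order of means differed by the test.

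Thbs2, close to Thbs1 in structure, followed another order. It stood at 0.833, 1.20 and 1.65 FPKM in control, 1.47, 0.430 and 1.26 FPKM after IFNγ and 0.451, 0.538 and 0.662 FPKM after IFNβ. After TIC it was 1.96, 1.78 and 2.30 FPKM, after IFNγ+TIC 1.11, 0.878 and 1.09 FPKM and after IFNβ+TIC 2.18, 2.50 and 2.16 FPKM. The TIC and IFNβ+TIC libraries lay above all control libraries and the IFNβ libraries below them, at levels that were low throughout. Thbs2 rose by 0.45 with TIC (SE 0.18, limma adjusted p = 0.0416) and by 0.57 with IFNβ+TIC (adjusted p = 0.0105), and fell by 0.51 with IFNβ (adjusted p = 0.0325, 0.0676 after median-ratio scaling). With a pseudocount of 0.1 the changes with TIC and IFNβ+TIC were 0.71 (adjusted p = 0.0871) and 0.88 (adjusted p = 0.0329), and that with IFNβ, over 1.5 times larger, stayed past the threshold (adjusted p = 0.0298). Single libraries decided these calls. Without control 1 the change was 0.31 for TIC (adjusted p = 0.185) and 0.44 for IFNβ+TIC (adjusted p = 0.0604). The call for TIC was also lost without control 2, TIC 1 or TIC 3. Without control 3 the change with IFNβ was -0.38 (adjusted p = 0.142), and that call was also lost without control 2, IFNβ 1 or IFNβ 2. With no single library left out was the call lost for the rise that TIC gave in cells with IFNβ, 1.08 (adjusted p = 9.09e-05), or for the higher level with IFNβ+TIC than with IFNγ+TIC, 0.70 (adjusted p = 0.00879). Thbs2 was 0.57 lower with IFNγ+TIC than with TIC (adjusted p = 0.0227), lost without TIC 3 or IFNγ+TIC 2.

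Gpc4, a glypican whose shed form recruits AMPA receptors, was the member set apart by IFNβ. Its levels were 6.67, 7.61 and 7.16 FPKM in control and 6.26, 6.13 and 8.07 FPKM after IFNγ, against 17.6, 18.6 and 22.7 FPKM after IFNβ. After TIC they were 8.88, 9.11 and 8.88 FPKM, after IFNγ+TIC 6.89, 6.27 and 7.50 FPKM and after IFNβ+TIC 17.0, 18.2 and 14.9 FPKM. The 6 libraries with IFNβ lay at 14.9 FPKM or more and the other 12 at 9.11 FPKM or less. IFNβ raised Gpc4 to 2.75 times its control mean, by 1.33 on the log2 scale (SE 0.11, limma adjusted p = 7.55e-08), and IFNβ+TIC raised it by 1.12 (adjusted p = 1.76e-07). The difference from control was -0.066 for IFNγ (95% interval -0.31 to 0.17) and -0.048 for IFNγ+TIC (-0.29 to 0.19). Gpc4 was 1.40 higher with IFNβ than with IFNγ (adjusted p = 6.40e-08), and 1.17 higher in the presence of TIC (adjusted p = 7.86e-07). Neither IFNβ and IFNβ+TIC nor control, IFNγ+TIC and IFNγ differed as neighbours in the order of means. The authors' deposited table gave log2 fold changes of 1.55 for IFNβ, 0.36 for TIC (adjusted p = 0.00902) and 1.43 for IFNβ+TIC.

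TIC alone raised Gpc4 by 0.29 (limma adjusted p = 0.0372). The 3 TIC libraries lay above every control library, but the call was lost without any one of control 1 (0.25, adjusted p = 0.116), control 3 or the TIC libraries. Added to TIC, IFNβ raised Gpc4 by 0.83 (adjusted p = 1.92e-05), against 1.33 without TIC. The difference of -0.51 (SE 0.16, adjusted p = 0.0407) was -0.48 after median-ratio scaling (adjusted p = 0.0559). It passed the threshold without control 2, IFNβ 1, IFNβ 2 or IFNβ+TIC 2 but not without any of the other 8 libraries in the comparison (0.107 without IFNβ 3). Added to TIC, IFNγ lowered Gpc4 by 0.34 (adjusted p = 0.0325), which became -0.23 after median-ratio scaling (adjusted p = 0.175) and was lost without any one of the TIC libraries, IFNγ+TIC 1 or IFNγ+TIC 2 (-0.28, adjusted p = 0.127).

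Chrdl1, chordin-like 1, stood at 3.56, 4.21 and 3.69 FPKM in control, 2.58, 2.11 and 3.41 FPKM after IFNγ and 1.94, 1.69 and 2.89 FPKM after IFNβ. After TIC it was 2.85, 3.97 and 3.64 FPKM, after IFNγ+TIC 3.25, 3.01 and 2.57 FPKM and after IFNβ+TIC 2.12, 2.37 and 1.87 FPKM. Apart from TIC, the treated groups lay below every control library, but no neighbours in the order of means differed by the test. Chrdl1 fell by 0.62 with IFNβ (SE 0.16, limma adjusted p = 0.00492) and by 0.63 with IFNβ+TIC (adjusted p = 0.00207). The differences were -0.11 for TIC (95% interval -0.44 to 0.22), -0.29 for IFNγ+TIC (-0.62 to 0.037) and -0.39 for IFNγ (adjusted p = 0.107, and -0.53 with adjusted p = 0.0492 without IFNγ 3). In the presence of TIC, IFNβ lowered it by 0.52 (adjusted p = 0.0130). That change was -0.40 after median-ratio scaling (adjusted p = 0.0623) and was lost without TIC 2 (0.0617) or IFNβ+TIC 3 (0.0501). The authors' deposited table gave -0.50 (adjusted p = 0.0567) for IFNβ and -0.40 (adjusted p = 0.0296) for IFNβ+TIC.

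Patterns over the 18 libraries were compared with those of the 7645 genes whose mean was 5 FPKM or more, by Pearson's r of log2 values. As the libraries fall into 6 groups, r mostly follows the group means, and it is given as a description. Closest to Sparcl1 were Cers4 (r = 0.988), a ceramide synthase, Insig1 (0.983), a regulator of cholesterol synthesis, and Agpat3 (0.982), an enzyme of phospholipid synthesis. Its most opposite gene was Vcam1 (-0.989), an adhesion molecule of inflamed tissue. Sparc was closest to Prex1 (0.962), Gas6 (0.951) and Llgl1 (0.949). Thbs4 was closest to Smpd3 (0.961), Elovl2 (0.961) and Fads1 (0.955), the last pair being enzymes of fatty acid elongation and desaturation. Gpc4 was closest to Ptcd3 (0.969), a mitochondrial ribosomal protein, and Nt5c3a (0.940), a nucleotidase. Thbs1 was closest to Ctss (0.934), a lysosomal protease, and Socs1 (0.933), an interferon-induced inhibitor of cytokine signalling. The best matches were weaker for Chrdl1 (Sqle, 0.850) and Thbs2 (Ier2, 0.845).

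Genes of the pathway were taken from lists, some of which also hold members. The counts are of genes called against control. Each count is to be read beside the shares of all genes called higher and lower. These were 7.11% and 7.17% with IFNγ, 8.86% and 29.1% with IFNβ, and 25.3% and 31.2% with TIC. They were 22.9% and 40.4% with IFNγ+TIC, and 19.3% and 42.8% with IFNβ+TIC. Of 8 SPARC family genes 6 were tested, the members Sparcl1 and Sparc among them, so the counts and medians partly repeat their changes. With IFNγ 1 rose and 3 fell, with IFNβ 0 and 2, with TIC 1 and 3, with IFNγ+TIC 1 and 4, and with IFNβ+TIC 1 and 4. Their median log2 change was -0.48, -0.47, -0.77, -1.08 and -0.96, where the medians over all genes were -0.05, -0.16, -0.04, -0.15 and -0.20. Smoc1, a modular calcium-binding protein of the family, was at 109.9, 79.5 and 77.8 FPKM in control, 10.5, 9.13 and 9.04 FPKM after TIC and 2.99, 2.78 and 2.74 FPKM after IFNγ+TIC. It fell by 3.08 (limma adjusted p = 5.77e-12) and 4.54 (adjusted p = 1.61e-14). Spock2, a brain proteoglycan, fell under all 5 treatments, by 1.43 with TIC (adjusted p = 1.20e-07). Fstl1 moved the other way, from 39.5 ± 4.28 FPKM in control to 79.1 ± 0.421 FPKM after TIC (SD, n = 3), a rise of 0.99 (adjusted p = 1.16e-07). Of 5 thrombospondins 4 were tested, and Thbs3, the one that is no member, rose by 0.47 with IFNβ (adjusted p = 0.0227) and was not called under the other treatments. The median over the thrombospondins was 0.025, -0.0038, 0.19, -0.10 and 0.29.

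**Figure D4:**
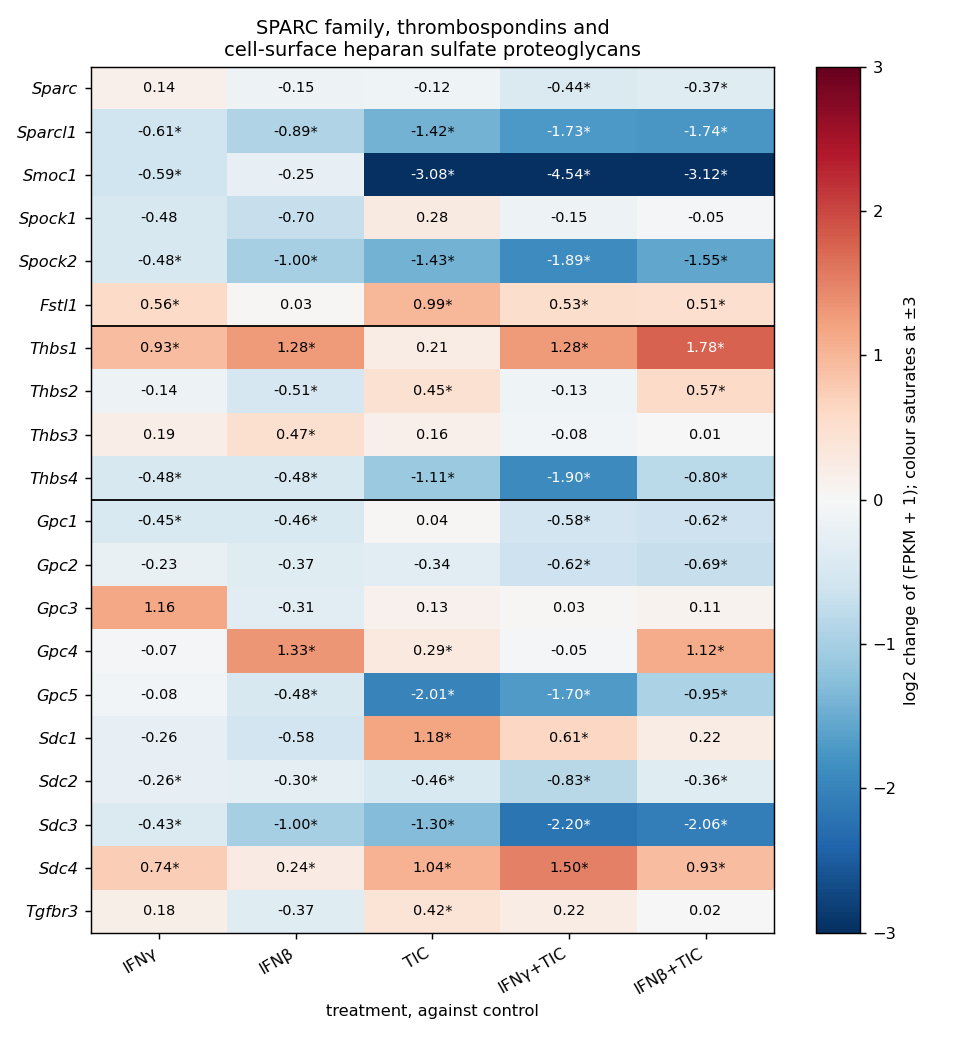
Heat map of the difference of log2(FPKM + 1) from control for genes of the SPARC family, the thrombospondins and the cell-surface heparan sulfate proteoglycans under each treatment, with asterisks for an adjusted p under 0.05 and colours that saturate at 3 in either direction. Sparcl1, Spock2, Thbs4, Sdc2 and Sdc3 are called lower, and Sdc4 higher, under every treatment. In all 3 treatments with TIC, Smoc1 and Gpc5 are also called lower and Fstl1 higher. With interferon alone, Smoc1 and Fstl1 are called the same way with IFNγ only, and Gpc5 with IFNβ only. Gpc4 is at 1.33 and 1.12 with IFNβ and IFNβ+TIC.

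Gpc4 belongs to the cell-surface heparan sulfate proteoglycans, of which 10 of 11 genes were tested. With IFNγ 1 rose and 3 fell, with IFNβ 2 and 4 (2 and 2 after median-ratio scaling), with TIC 4 and 3, with IFNγ+TIC 2 and 5, and with IFNβ+TIC 2 and 5. The median changes were -0.16, -0.37, 0.089, -0.31 and -0.17. The glypicans other than Gpc4 moved in other ways. Gpc1 went from 35.5 ± 4.39 FPKM in control to 25.5 ± 1.50 FPKM after IFNβ (SD, n = 3) and fell by 0.46 (limma adjusted p = 0.00460). Gpc5 went from 18.9 ± 3.37 FPKM in control to 3.91 ± 0.679 FPKM after TIC and fell by 2.01 (adjusted p = 6.58e-09). Of the syndecans, which share the heparan sulfate chains, Sdc3 fell by 1.30 with TIC (adjusted p = 1.12e-07) and Sdc4 rose by 1.04 (adjusted p = 3.84e-09).

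Glypican function depends on heparan sulfate chains, and 23 of 28 genes that build or edit them were tested. With IFNγ 2 rose and 2 fell, with IFNβ 3 and 7 (4 and 2 after median-ratio scaling), with TIC 5 and 11, with IFNγ+TIC 5 and 14, and with IFNβ+TIC 6 and 9. Their medians were -0.0089, -0.20, -0.25, -0.41 and -0.11. Sulf2, a secreted enzyme that removes sulfate groups from the chains, went from 189 ± 13.8 FPKM in control to 63.2 ± 3.88 FPKM after TIC and 38.5 ± 1.10 FPKM after IFNγ+TIC (SD, n = 3). It fell by 1.56 (limma adjusted p = 4.84e-11) and 2.26 (adjusted p = 1.80e-13). Hs3st3b1, a sulfotransferase, fell by 1.57 with TIC (adjusted p = 1.75e-07), while another, Hs3st1, rose by 1.68 (adjusted p = 3.83e-06). Extl3, which initiates the chains, rose by 1.74 with TIC (adjusted p = 1.79e-10). Ndst2, an enzyme of chain sulfation, was listed at 0 in all libraries except those with IFNγ alone, at 6.06, 5.79 and 6.78 FPKM, and IFNβ+TIC 3, at 5.11 FPKM, so no fold is given.

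Of 26 other secreted regulators of synapses, Chrdl1 included, 22 were tested. With IFNγ 2 rose and 4 fell, with IFNβ 3 and 11 (3 and 7 after median-ratio scaling), with TIC 8 and 11, with IFNγ+TIC 6 and 10, and with IFNβ+TIC 6 and 13. The medians were -0.0094, -0.38, -0.36, -0.33 and -0.61. Nell2, a secreted neuronal guidance factor, went from 31.5 ± 3.03 FPKM in control to 4.34 ± 0.162 FPKM after TIC (SD, n = 3). It fell by 1.15 with IFNβ (limma adjusted p = 2.70e-06) and by 2.60 with TIC (adjusted p = 1.82e-11). Tnc, the matrix protein tenascin C, went from 8.24 ± 2.24 FPKM to 109.9 ± 9.68 FPKM with TIC and rose by 3.61 (adjusted p = 9.78e-13). Ptx3, a pentraxin, rose by 3.11 with TIC (adjusted p = 2.61e-11). Cntf, a neurotrophic cytokine, rose by 1.17 with IFNβ (adjusted p = 0.00130) and by 2.51 with IFNβ+TIC (adjusted p = 1.17e-07), where it reached 53.9 ± 4.71 FPKM against 9.37 ± 4.81 FPKM in control.

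Receptors and bridging partners of the factors are mostly neuronal, and 12 of 21 were tested in these cultures. With IFNγ 1 rose and 0 fell, with IFNβ 1 and 4 (2 and 2 after median-ratio scaling), with TIC 3 and 7, with IFNγ+TIC 1 and 8, and with IFNβ+TIC 1 and 9. The medians were 0.019, -0.18, -0.40, -0.60 and -0.84. Nlgn3, a neuroligin, went from 60.9 ± 7.79 FPKM in control to 24.5 ± 1.30 FPKM after TIC (SD, n = 3) and fell by 1.27 (limma adjusted p = 8.99e-08). Ptprs, a receptor phosphatase that binds heparan sulfate, fell by 0.91 with IFNβ (adjusted p = 1.26e-06) and by 1.31 with IFNβ+TIC (adjusted p = 2.49e-09). Of 9 neuron markers 4 were in the table and summed to 40.6 to 50.2 FPKM in control, 22.0 to 25.2 FPKM after IFNβ, 55.0 to 62.9 FPKM after TIC and 15.8 to 18.4 FPKM after IFNβ+TIC. Snap25 made up most of that, at 27.9 to 38.7 FPKM in control, and the markers did not all move with the sum. With TIC 3 were called higher and Map2 lower (-1.72, limma adjusted p = 2.66e-09). With IFNβ+TIC 2 were called lower and Syt1 higher (0.75, adjusted p = 0.000371). The part of these markers in the counts was not tested.

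Of 20 enzymes that process matrix proteins or release surface proteins, 16 were tested. With IFNγ 0 rose and 3 fell, with IFNβ 0 and 4 (1 and 4 after median-ratio scaling), with TIC 10 and 4, with IFNγ+TIC 10 and 4, and with IFNβ+TIC 8 and 5. The medians were -0.058, -0.15, 0.67, 0.61 and 0.19. Mmp9, a gelatinase, went from 0.418 ± 0.0780 FPKM in control to 60.9 ± 5.73 FPKM after TIC (SD, n = 3) and rose by 5.45 (limma adjusted p = 2.40e-16). Its level after IFNβ+TIC was 8.35 ± 0.337 FPKM. Mmp3, stromelysin 1, rose by 3.29 with TIC (adjusted p = 1.05e-05). Adamts4, a protease that cleaves matrix proteoglycans, rose by 2.05 with IFNβ+TIC (adjusted p = 8.22e-08). Gdpd2, of a family of phosphodiesterases that cleave the lipid anchor of surface proteins, went from 27.0 ± 2.22 FPKM to 4.08 ± 0.738 FPKM with TIC and fell by 2.47 (adjusted p = 2.78e-10).

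Of 17 collagens and matrix proteins that bind Sparc or are laid down with it, 11 were tested. With IFNγ 2 rose and 1 fell, with IFNβ 1 and 2 (3 and 2 after median-ratio scaling), with TIC 8 and 1, with IFNγ+TIC 5 and 2, and with IFNβ+TIC 4 and 1. The medians were 0.21, -0.43, 0.83, 0.32 and 0.24. Fn1, fibronectin, went from 7.24 ± 0.698 FPKM in control to 113 ± 11.7 FPKM after TIC (SD, n = 3) and rose by 3.79 (limma adjusted p = 5.30e-12). Col4a1, a basement membrane collagen, rose by 1.66 with TIC (adjusted p = 1.59e-10). Of 9 markers of pericytes and fibroblasts, which also make collagen, 6 were in the table. They summed to 39.4 to 57.6 FPKM in control, 70.4 to 101 FPKM after IFNγ, 73.3 to 99.9 FPKM after IFNβ and 28.4 to 33.9 FPKM after TIC. Most of that was Tagln, at a mean of 35.0 FPKM in control and 24.2 FPKM after TIC. With IFNγ or IFNβ alone, Tagln was called higher (1.08 and 1.14) and Anpep lower (-0.65 and -1.02). Col1a1, Dcn and Pdgfrb were not called there. With TIC, Tagln and Anpep were called lower, while Col1a1 (0.83), Dcn (0.83) and Pdgfrb (0.16) were not called. Flt1, the only endothelial marker of 8 in the table, was at 0.111 to 0.163 FPKM in control and 6.96 to 8.17 FPKM after TIC. The part of either in these counts was not tested.

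**Figure D5:**
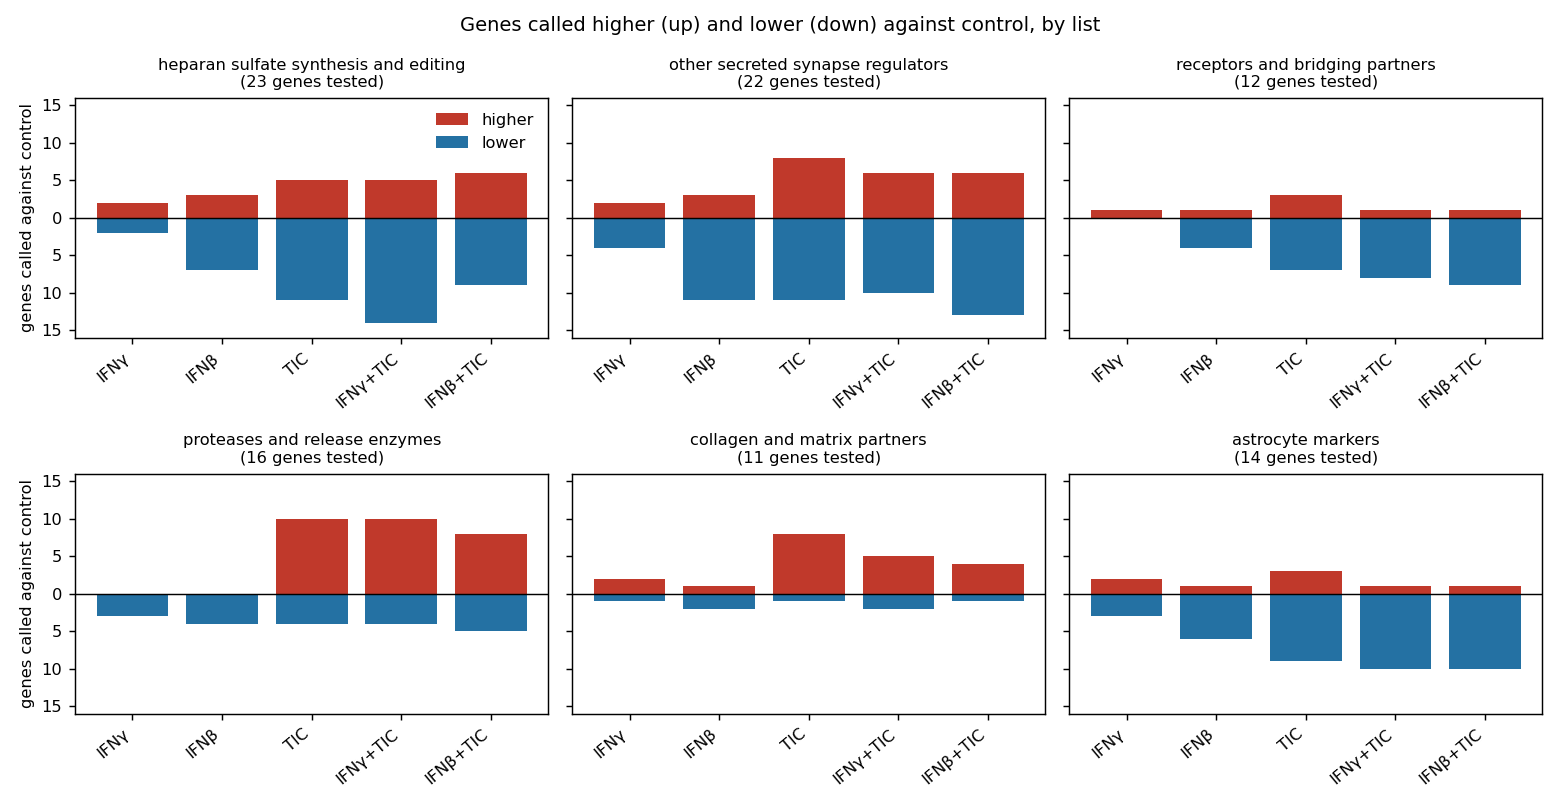
Number of genes called higher (upward) or lower (downward) against control at a limma adjusted p under 0.05 under each treatment, for 5 gene lists and the astrocyte markers. Of the 16 proteases and release enzymes tested, 10, 10 and 8 are called higher in the treatments with TIC. The shares of all genes called higher there are 25.3%, 22.9% and 19.3%. With interferon alone none is called higher (1 with IFNβ after median-ratio scaling). With 16 genes that is near the shares of all genes there, 7.11% for IFNγ and 8.86% for IFNβ.

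The astrocyte markers were counted beside Sparcl1, which astrocytes themselves express highly. With IFNγ 2 of 14 rose and 3 fell, with IFNβ 1 and 6, with TIC 3 and 9, with IFNγ+TIC 1 and 10, and with IFNβ+TIC 1 and 10. Their median change was -0.15, -0.31, -0.89, -1.27 and -0.76, and the change of Sparcl1 was -0.61, -0.89, -1.42, -1.73 and -1.74. Gfap, the astrocyte intermediate filament, fell by 1.63 with IFNβ (limma adjusted p = 4.88e-11) and by 1.01 with TIC (adjusted p = 1.66e-08). Aqp4, the water channel, was at 34.4 ± 2.03 FPKM in control and 28.2 ± 4.22 FPKM after TIC (SD, n = 3) and was not called under any treatment. Slc1a2, a glutamate transporter, rose by 0.21 with TIC (adjusted p = 0.0390). It fell by 0.59 with IFNγ (adjusted p = 7.12e-05), by 0.32 with IFNβ (adjusted p = 0.00558) and by 0.31 with IFNβ+TIC (adjusted p = 0.00392). Of the markers that fell with TIC, the largest changes were those of Aldoc (-2.44), Atp1b2 (-2.16) and S100b (-2.15), named after their values were seen. The part of the markers in the change of Sparcl1 was not tested.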

How the data were processed

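RNA was measured in 18 libraries, 3 for each of 6 treatments, listed under 10434 rows of rat Ensembl genes. Per the labels' protocols, cDNA was made with SMART-seq HT and Nextera XT reagents and read on a NovaSeq6000 instrument. FPKM values per library were computed by the authors and deposited with no counts, so the depth behind each value is unknown and no counting interval is given. The submitters' processing notes name HISAT2, StringTie, DESeq2 and the mouse build mm10, with versions not given in the sources used here, although the gene identifiers are of rat. The log2 fold changes and the adjusted p-values against control were deposited by the authors in the same workbook. Error text fills 121 cells of the authors' IFNγ log2 column and 120 of the IFNβ one.

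The 3 rows without a gene name were left out (at most 0.0120% of a library's FPKM), and 17 symbols that a spreadsheet had turned into numbers were kept under their identifiers. FPKM were taken to log2(FPKM + 1), 10296 genes that reached 1 FPKM in 3 libraries were kept, and limma 3.58.1 (R 4.3.3) was fitted over all 6 groups with a trend in the prior variance and Benjamini-Hochberg adjustment over all genes of a comparison. Comparisons were each treatment against control, the combined treatments against their parts, the interferons against each other, and the difference of each interferon's change with and without TIC. The fit was tested on simulated data. Descriptions used Python 3.11.15 with pandas 2.3.3 and numpy 2.4.6, and figures matplotlib 3.10.9. Named beside the members were, per gene list and comparison, up to 4 called genes of the greatest absolute log2 change with a mean of 2 FPKM or more in 1 group, the 5 most and 3 least correlated genes, Irf1, Isg15, Lcn2 and defining cell markers. The members and gene lists were chosen with earlier results of these data known. Alternatives were pseudocounts of 0.1 and 0.5, no filter, median-ratio scaling, an equal sum per library, library weights, no variance trend, only the groups compared, a replicate block and each library left out. One gene that this rule names is not reported here.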

Additional observations from a re-analysis of the deposited data

Results flagged for a closer look

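In 5 cases the change a gene showed with an interferon differed between cells with and without TIC, by a limma test of that difference over all genes. Of the 7 members, 1 such difference was above 0 and 1 below for IFNγ, and 2 above and 1 below for IFNβ. Over all genes tested, 13.9% showed such a difference for IFNγ and 15.8% for IFNβ. Sparcl1 fell less with interferon when TIC was present, by 0.30 on the log2 scale for IFNγ (adjusted p = 0.0187) and by 0.58 for IFNβ (adjusted p = 9.72e-05). For Sparc the difference was -0.46 for IFNγ (adjusted p = 0.00557), with 0.14 against control and a fall of 0.31 against TIC. For Thbs4 it was 0.79 for IFNβ (adjusted p = 0.00550), with a fall of 0.48 against control and a difference of 0.31 against TIC. For Gpc4 it was -0.51 for IFNβ (adjusted p = 0.0407), a value that passed the threshold without only 4 of the 12 libraries in turn. No cause of these differences was tested.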

How the results depend on the processing

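No called result changed direction under the alternatives run, while several differences near 0 that were not called did. Among those, median-ratio scaling gave 0.11 for Gpc4 with IFNγ+TIC, 0.044 for Sparcl1 between IFNβ+TIC and IFNγ+TIC, 0.10 for Thbs4 between IFNβ and IFNγ, and 0.045 for Chrdl1 between IFNβ+TIC and IFNβ, and a pseudocount of 0.1 gave -0.40 and -0.26 for the differences of Thbs1 by TIC. Median-ratio scaling moved several values past or short of the threshold: for Thbs2 with IFNβ -0.44, for Sparc with IFNβ+TIC -0.14, for Gpc4 between IFNγ+TIC and TIC -0.23, for Sparc between IFNβ and IFNγ -0.19, and for the difference of Gpc4 by TIC with IFNβ -0.48. Between IFNβ+TIC and TIC it gave -0.14 for Sparcl1, -0.080 for Sparc and -0.40 for Chrdl1, no longer called, and 0.47 for Thbs4, newly called. Between IFNβ+TIC and IFNβ it gave -0.14 for Sparc and -0.25 for Thbs4, no longer called, and 0.57 for Thbs1, newly called. Under this scaling 3111 genes were called with IFNβ, against 3909.

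An equal sum per library made Sparc called with IFNβ (-0.20) and TIC (-0.17) and Thbs1 called between IFNβ+TIC and IFNβ (0.51). It ended the calls of Thbs2 (0.42) and Gpc4 (0.25) with TIC and of the Gpc4 difference by TIC (-0.46). Library weights ended those of Thbs4 with IFNγ (-0.46), of Thbs2 with IFNβ (-0.47) and of the Gpc4 difference (-0.48). For Thbs2 with TIC, pseudocounts of 0.1 and 0.5 gave 0.71 and 0.56, neither called, and a pseudocount of 0.1 ended the calls of Thbs2 between IFNγ+TIC and TIC (-0.91) and of Thbs4 between IFNβ+TIC and IFNβ (-0.34). A fit of only the groups compared left the values as they were but ended the calls of Thbs2 with TIC (0.45) and, between IFNβ+TIC and IFNβ, of Sparc (-0.22) and Thbs4 (-0.32), and made Thbs4 called between IFNβ+TIC and TIC (0.31). Without a variance trend Thbs1 was called between IFNβ+TIC and IFNβ (0.50). The cause of these changes was not tested.

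No pairing of the samples by replicate number showed in the values, which does not exclude one. Deviations of same-numbered libraries had correlations of -0.173 to 0.155, against -0.204 to 0.163 for libraries of different numbers. Of 18 libraries 7 were closest to their own number. A fit with the replicate number as a block changed 2 member calls, both between IFNβ+TIC and IFNβ, namely Thbs1 (0.50, adjusted p = 0.0461) and Thbs4 (-0.32, adjusted p = 0.0536), and called 3915 genes with IFNβ, against 3909.

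With each library left out in turn, values that crossed the threshold ranged as follows. Against control they were -0.53 to -0.28 for Chrdl1 with IFNγ, -0.22 to -0.10 for Sparc and -0.64 to -0.38 for Thbs2 with IFNβ, -0.19 to -0.083 for Sparc, 0.31 to 0.58 for Thbs2 and 0.25 to 0.33 for Gpc4 with TIC, and 0.44 to 0.70 for Thbs2 with IFNβ+TIC. Between IFNγ+TIC and TIC they were -0.63 to -0.50 for Thbs2 and -0.39 to -0.28 for Gpc4, and between IFNβ+TIC and TIC -0.29 to -0.20 for Sparc and -0.63 to -0.44 for Chrdl1. Between IFNβ+TIC and IFNβ they were -0.27 to -0.17 for Sparc, 0.23 to 0.68 for Thbs1 and -0.41 to -0.21 for Thbs4, and between IFNβ and IFNγ -0.61 to -0.21 for Thbs2, called without IFNγ 2 (adjusted p = 0.00977). The differences by TIC were -0.67 to -0.28 for Thbs2 with IFNγ, called without IFNγ 2 (adjusted p = 0.0404), and -0.58 to -0.40 for Gpc4 with IFNβ.

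FPKM without counts set the limits: the depth is unknown, 3 libraries make a group, and Thbs1 and Thbs2 lay near the filter on low values, so that their changes depend on the pseudocount. Separate cultures are not documented, and a cell mixture that shifts with treatment cannot be told apart from a change within astrocytes.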

Other observations

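A pair of within-library ratios was chosen after the values were seen and is given without a test. Gpc4 relative to Gpc1, another glypican of these cells, averaged 0.205 in control, 0.271 after IFNγ, 0.246 after TIC and 0.299 after IFNγ+TIC, and 0.773 after IFNβ and 0.748 after IFNβ+TIC. Thbs4 relative to Thbs1 averaged 34.2 after TIC, 15.1 after IFNγ, 10.5 after IFNβ and 3.43 after IFNγ+TIC, and was 6.02, 5.62 and 3.37 in the libraries with IFNβ+TIC. Thbs1 is listed at 0 in a control library, so no mean is given for control. After TIC it was at only 0.243 to 0.433 FPKM. As Thbs1 passed the filter only through the groups with interferon, a lower ratio in those groups follows in part from its entry and supports nothing.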
